A study of Danio rerio with 18 samples.

Results

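The genes described here encode proteins of the mitochondrial ribosome in zebrafish (Danio rerio). They were chosen by name: every row of the count table whose Ensembl zebrafish gene name, with case ignored, begins with mrpl or mrps followed by a digit. The rule used no measured value and found 73 genes among the 25193 in the table. Of these, 48 encode proteins of the large subunit and 25 encode proteins of the small subunit, with mrps30 and mrps18a counted in the large subunit, where the human proteins sit. A further division is by ancestry: 28 large-subunit and 15 small-subunit proteins have a counterpart in bacterial ribosomes, while 20 and 10 are found in mitochondrial ribosomes and not in bacterial ones.

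Mitochondria keep a ribosome of their own, which translates the few messages of the mitochondrial genome, all of them for subunits of the respiratory chain and the ATP synthase. Its ribosomal RNA is transcribed inside the organelle, but its proteins are nuclear-encoded, made on cytosolic ribosomes and imported. The large subunit joins amino acids and passes the chain out at the inner membrane, and the small subunit holds and decodes the message. In the embryo, the messages of these genes are translated in every tissue that builds mitochondria, the blood vessel lining included.

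Zebrafish embryos at 24 hours post fertilization, pooled and positive for a transgene, gave 18 libraries in 6 groups of 3. Both FACS groups and both Angiotag groups are from the Angiotag line. FACS sorted holds the RNA of endothelial cells that were separated by their GFP in a cell sorter, and FACS total RNA holds total RNA, labelled only as such. Angiotag IP is RNA pulled down with ribosomes by an antibody against the HA tag, for the endothelial translatome, and Angiotag input is the input RNA of the same line. Ribotag IP is the same kind of pull-down from the Ribotag line, for the translatome of the whole embryo, and Ribotag input is its input RNA. The promoters that drive the transgenes, the tagged protein and the size of the pools are not given in the sources used here. Nor do they say whether samples with different numbers came from different pools, so a p-value here measures sample-to-sample spread, which may be technical.

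Library totals ran from 18.3 to 49.5 M counts (M, 1e6). The lowest count of any of the 73 genes in any library was 117, and all 73 passed the filter on low counts in each of the 8 comparisons. Levels are in CPM, counts scaled to library size with TMM factors over all libraries, and they rank libraries within a gene, not genes within a library, because they are not divided by gene length. Of 10 endothelial marker genes in the table, the summed level was 5559 to 7650 CPM in FACS sorted and 2852 to 4893 CPM in Angiotag IP. It was 129 to 185 CPM across the libraries of the other 4 groups, so in these markers no group went against its label. Messages of other tissues remained in Angiotag IP. Muscle markers summed to 6160 to 8437 CPM there and 8333 to 10546 CPM in Angiotag input, and epidermal markers to 7096 to 15242.5 CPM and 13928 to 18420 CPM.

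Added together, the mitochondrial ribosomal protein genes averaged lowest in the sorted endothelial cells and highest in the Angiotag IP. In FACS sorted, samples 1, 2 and 3 held 1405, 1600 and 1656 CPM, and in FACS total RNA 1917, 1511 and 2851 CPM. In Angiotag IP they held 5719, 3459 and 4713 CPM, and in Angiotag input 3659, 3883 and 3399 CPM. In Ribotag IP they held 3945, 2246 and 5252 CPM, and in Ribotag input 3598, 2690 and 3835 CPM. Each sorted or IP group overlapped its own total RNA or input group, and the spread within both IP groups was wider than in either input group. FACS sorted and FACS total RNA lay wholly below Angiotag input.

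**Figure D1:**
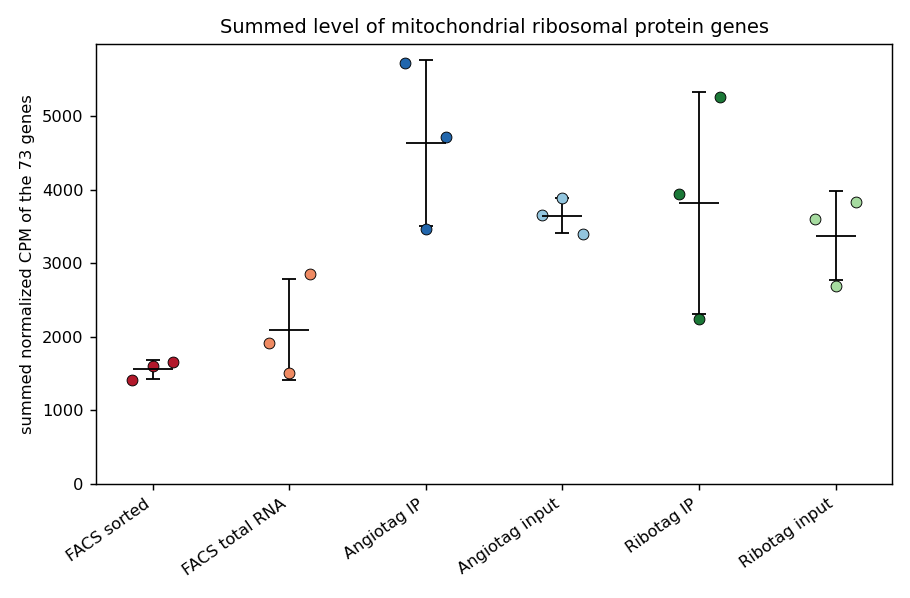
Summed level of the 73 mitochondrial ribosomal protein genes (vertical axis, normalized CPM) in each of the 18 libraries, by group; each point is a library, the line is the mean of 3 and the bar its SD. The 6 FACS libraries sit between 1405 and 2851 CPM, and Angiotag IP 1 and Ribotag IP 3 reach 5719 and 5252 CPM.

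Within a group, the genes tended to be high or low in the same library. Ribotag IP 2 gave the lowest of its group's 3 levels for 73 of 73 genes, Ribotag input 2 for 72, Angiotag IP 2 for 70 and FACS total RNA 2 for 69. FACS total RNA 3 gave the highest level of its group for 70 genes, Ribotag IP 3 for 69 and Angiotag IP 1 for 60. Cytosolic ribosomal protein genes, of which 77 were in the table, held 7.19% of the counts of Ribotag IP 2, and 14.5% and 16.5% of those of Ribotag IP 1 and 3. In FACS total RNA 3 they held 19.2%, with 12.5% and 12.3% in samples 1 and 2, whereas in Angiotag IP 2 they held 23.5%, with 17.3% and 18.2% in samples 1 and 3. The part of these library differences in the results below was not tested, but counts without each library are given beside them. The groups serve in several comparisons each, so values of comparisons that share a group are not independent.

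By group mean, FACS sorted was the lowest of the 6 groups for 69 of the 73 genes, FACS total RNA for 3 and Ribotag IP for 1. Angiotag IP was the highest for 51, Ribotag IP for 18, and each input group for 2. The median over the genes of the group mean was 20.4 CPM in FACS sorted and 27.7 CPM in FACS total RNA. It was 63.0 CPM in Angiotag IP and 47.0 CPM in Angiotag input, and 49.1 CPM in Ribotag IP and 46.3 CPM in Ribotag input. The summed level of large-subunit genes over that of small-subunit genes, a ratio that can be compared between libraries but carries the lengths of the genes, ran from 1.89 to 2.13 in FACS sorted and from 2.03 to 2.17 in FACS total RNA. It ran from 1.88 to 1.92 in Angiotag IP and from 1.93 to 1.97 in Angiotag input, and these 2 ranges did not overlap. In the Ribotag line it ran from 1.95 to 2.08 in the IP and from 1.97 to 2.09 in the input.

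**Figure D2:**
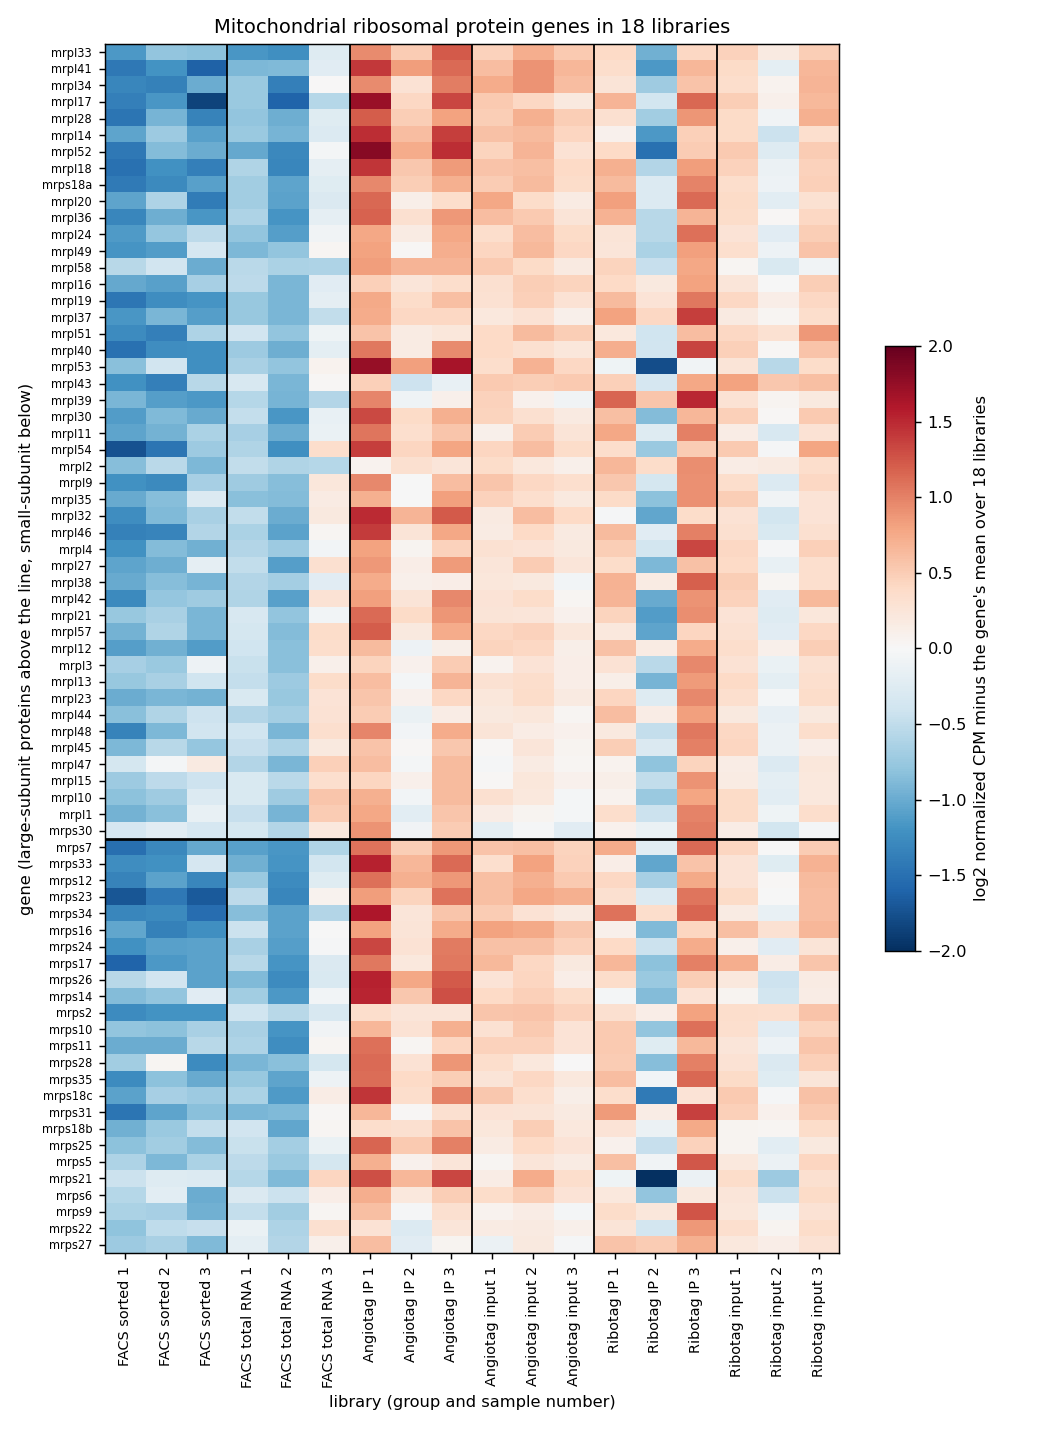
Level of each mitochondrial ribosomal protein gene (rows, large-subunit proteins above the line and small-subunit proteins below) in each library (columns), as log2 normalized CPM minus the mean of that gene over all 18 libraries. The FACS columns are blue for nearly every gene, FACS total RNA 3 is paler than samples 1 and 2, and Ribotag IP 2 is bluer than Ribotag IP 1 and 3.

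FACS total RNA against Angiotag input sets the total RNA and the input RNA of the Angiotag line side by side. All 73 genes had a negative log2 fold change, and 51 of them fell, with an adjusted p under 0.05 in edgeR's quasi-likelihood test. The background of this comparison is wide: 21.2% of all genes tested fell and 25.2% rose. The median log2 fold change of the 73 genes was -0.97, against -0.02 over all genes tested. Of the 73, 31 were below -1, a count for which the share of all genes was not computed. In bulk RNA, fewer cells of a kind and less of a message per cell cannot be told apart. Which libraries were selected for poly(A) and which depleted of ribosomal RNA is not given, and FACS total RNA is labelled only as total RNA. A difference in preparation between the groups therefore cannot be told apart from these either.

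The small-subunit gene mrps7 (ENSDARG00000101622), whose protein is the counterpart of bacterial S7 in the head of the subunit, had 18.8, 17.8 and 26.2 CPM in FACS total RNA, and 59.1, 60.7 and 54.3 CPM in Angiotag input. The groups stood apart, and the log2 fold change was -1.57 ± 0.22 (SE, adjusted p = 0.000886). For mrps12, the counterpart of the S12 protein of the decoding centre, the levels were 23.0, 16.2 and 32.7 CPM in FACS total RNA and 58.5, 63.1 and 55.5 CPM in Angiotag input (-1.40 ± 0.27, adjusted p = 0.00416). For the large-subunit gene mrpl33 they were 11.5, 11 and 21.5 CPM in FACS total RNA, against 35.5, 42.6 and 36.9 CPM in Angiotag input (-1.48 ± 0.30, adjusted p = 0.00467). FACS total RNA 3 was the highest of its group in all 3 genes.

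Of the other large-subunit genes with bacterial counterparts, mrpl34 fell by 1.44 ± 0.34, mrpl17 by 1.39 ± 0.28, mrpl28 by 1.30 ± 0.24 and mrpl14 by 1.28 ± 0.22 on the log2 scale. The protein of mrpl14 lies at the face of the large subunit that meets the small one. Among the proteins particular to mitochondria, mrpl41 had 10.5, 10.6 and 16.7 CPM in FACS total RNA and 30.0, 36.3 and 31.0 CPM in Angiotag input, and fell by 1.46 ± 0.25 (adjusted p = 0.00225). The small-subunit genes mrps33 and mrps23, also without bacterial counterparts, fell by 1.44 ± 0.27 and 1.26 ± 0.33. These 10 genes were named for the size of their change among those whose groups did not overlap, so their non-overlap is no further result.

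At the other end, mrps30 had 43.0, 36.5 and 63.4 CPM in FACS total RNA and 48.3, 53.8 and 46.8 CPM in Angiotag input, overlapping groups, with a log2 fold change of -0.16 ± 0.24 (adjusted p = 0.622). The values of mrpl1 (-0.31 ± 0.36), mrpl10 (-0.31 ± 0.33) and mrps27 (-0.32 ± 0.23) also missed the threshold; mrpl10 is the counterpart of the bacterial protein that anchors the flexible stalk, mrpl1 that of bacterial L1, and mrps27 has none. For mrpl12, the stalk protein itself, the value was -0.63 ± 0.31 (adjusted p = 0.125). The log2 fold changes of the 73 genes spread with an SD of 0.33 across genes, against 1.57 over all genes tested. A narrow spread was not particular to them: the SD was 0.30 over nuclear genes of the respiratory chain and 0.20 over cytosolic ribosomal protein genes.

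By subunit, 31 of 48 large-subunit genes fell (median log2 fold change over all 48, -0.93), as did 20 of 25 small-subunit genes (median over all 25, -1.01). By ancestry, 30 of 43 genes with a bacterial counterpart fell (median over the 43, -0.95), as did 21 of 30 without one (median over the 30, -0.97). No test of a difference between these classes was made.

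**Figure D3:**
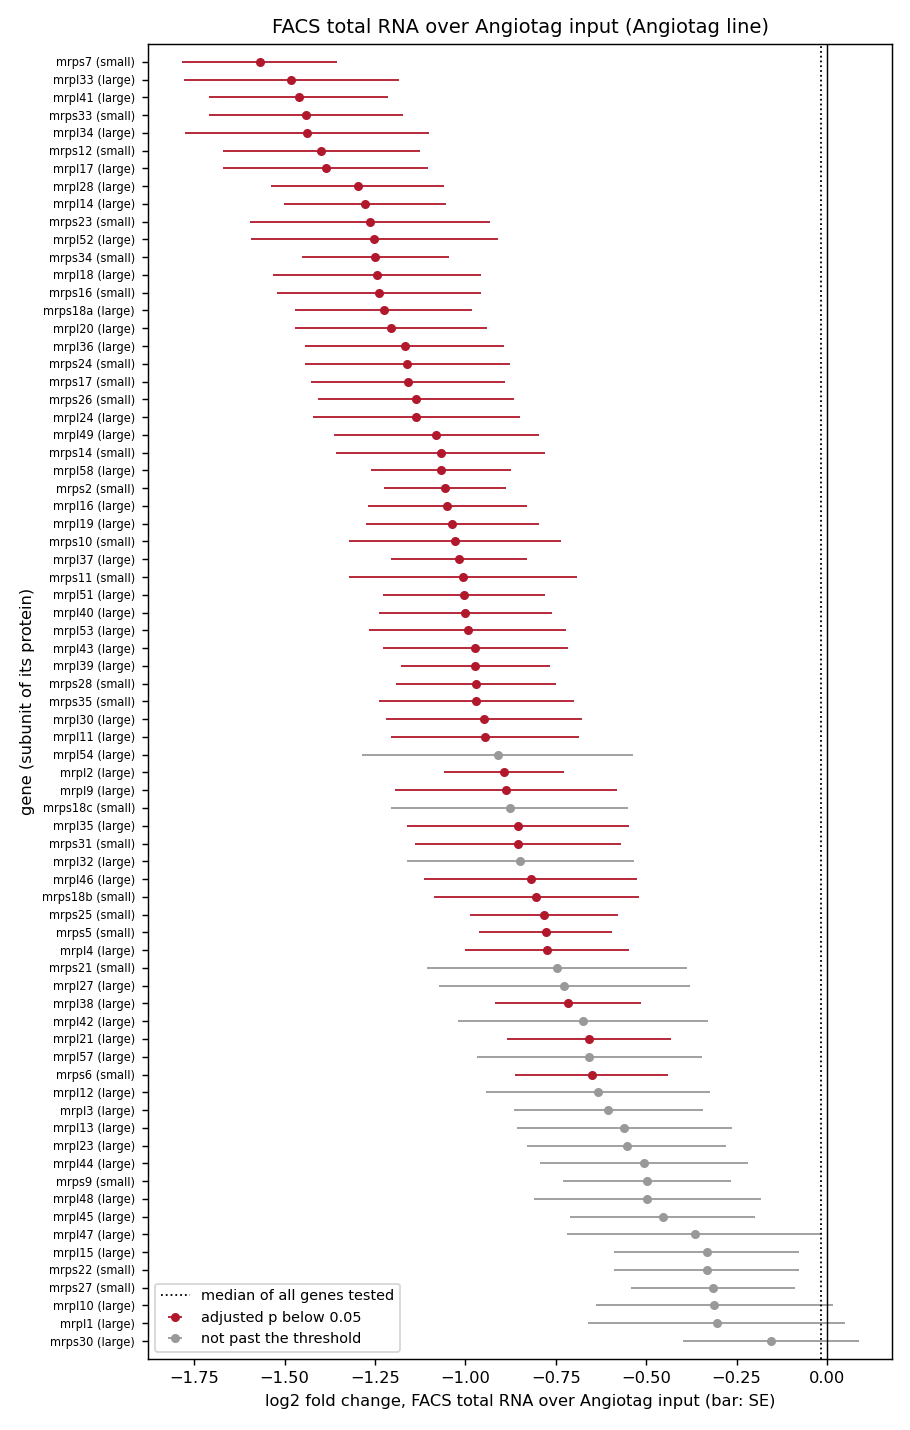
Log2 fold change of FACS total RNA over Angiotag input (horizontal axis) with its SE for each of the 73 genes, ordered by size; filled red points passed the threshold of 0.05 and grey points did not. All points lie left of 0, mrps7 at -1.57 is lowest and mrps30 at -0.16 is nearest 0.

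The count depends on the library. It was 73 without FACS total RNA 3, where 30.3% of all genes fell. Without FACS total RNA 1 it was 30, where 13.8% of all genes fell, and without FACS total RNA 2 it was 42, where 16.5% fell. Without Angiotag input 1, 2 or 3 it was 39, 32 and 40, where 16.2%, 11.9% and 12.6% of all genes fell. Whichever library was left out, 30 genes kept their call. The share of all genes that kept theirs in every such fit was not computed, so this count has no background beside it. Set against Ribotag input in place of Angiotag input, an alternative chosen after seeing the data, FACS total RNA still had all 73 log2 fold changes below 0 (median -0.86), of which 30 passed, where 14.4% of all genes fell and 17.9% rose. The levels of all 3 FACS total RNA libraries were below all 3 Angiotag input libraries in 52 of the 73 genes, as in 25.2% of all genes.

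Markers of other tissues differed between the same groups. The 4 genes of the yolk syncytial layer summed to 4.59 to 13.5 CPM in FACS total RNA and 2017 to 2815 CPM in Angiotag input, and 4 of 4 fell, though none was at 0. The 5 muscle genes summed to 1003 to 3262 CPM in FACS total RNA and 8333 to 10546 CPM in Angiotag input, with 3 of 5 down. The 5 epidermal genes summed to 4821 to 10426 CPM in FACS total RNA and 13928 to 18420 CPM in Angiotag input, with 3 of 5 down. Of 5 neural genes 2 rose and 3 fell, of 10 endothelial genes 3 rose and 3 fell, and 1 of 5 erythroid genes rose. Their part in the fall of the mitochondrial ribosomal protein genes was not tested.

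Companion genes of mitochondrial gene expression were counted in the same comparison. Of 5 further mitochondrial ribosomal proteins whose names do not begin with mrp, 2 passed, both lower: gadd45gip1 (-0.91 ± 0.24) and chchd1 (-0.94 ± 0.33). Of 15 mitochondrial translation factors, 9 passed, all lower, led by the initiation factor genes mtif3 (-1.64 ± 0.29) and mtif2 (-1.21 ± 0.19) and by taco1 (-1.16 ± 0.20), in human cells an activator of cytochrome oxidase translation. Among 24 assembly factors of the mitochondrial ribosome, 10 fell and 1 rose. The largest falls were those of mrm1 (-1.53 ± 0.25), a methyltransferase of ribosomal RNA, ybey (-1.44 ± 0.23) and malsu1 (-1.35 ± 0.25), and the gene that rose was eral1 (1.03 ± 0.21), which in human cells encodes a GTPase that binds the RNA of the small subunit.

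Of 17 mitochondrial aminoacyl-tRNA synthetases and related enzymes, 6 passed, all lower, with fars2 at -1.36 ± 0.23, ears2 at -1.18 ± 0.26 and pars2 at -1.02 ± 0.23. Among 9 genes of mitochondrial transcription and DNA maintenance, the elongation factor gene tefm fell (-0.79 ± 0.24) and the RNA polymerase gene polrmt rose (0.94 ± 0.26). Of the 12 mitochondrially encoded genes tested, 9 fell, with a median of -1.09. So did 57 of 92 nuclear genes of the respiratory chain, with a median of -0.94, and 19 of 77 cytosolic ribosomal protein genes, with a median of -0.68. Values below 0 were thus not particular to the mitochondrial ribosomal protein genes. They were held by 12 of 12 mitochondrially encoded, 92 of 92 respiratory chain and 77 of 77 cytosolic ribosomal protein genes as well.

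FACS sorted against FACS total RNA addresses what sets the transcriptome of endothelial cells apart. Here 70 of the 73 genes had negative log2 fold changes, with a median of -0.42 against -0.11 over all genes tested, and 1 gene, mrps2, passed the threshold, lower in FACS sorted. In this comparison 13.9% of all genes tested rose and 14.8% fell, so the 1 call of 73 is under the background. At an unadjusted p under 0.05 there were 8 genes, all lower. The share of all genes under that limit was not computed, so counts of this kind, here and below, have no background beside them.

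The gene mrps2 (ENSDARG00000103198) encodes the counterpart of bacterial S2, a protein of the small subunit. It had 15.1, 15.7 and 15.8 CPM in FACS sorted and 27.4, 24.5 and 28.9 CPM in FACS total RNA, so the groups did not overlap, and the log2 fold change was -0.77 ± 0.24 (adjusted p = 0.0414). The call was lost without any 1 of the 6 libraries, at adjusted p-values of 0.0679 to 0.161, and in DESeq2, at 0.0502, where the 1 call was another gene. The next genes in order of p missed the threshold. For mrps23 the levels were 8.69, 10.5 and 8.81 CPM in FACS sorted and 19.7, 11.5 and 29.9 CPM in FACS total RNA (-1.11 ± 0.37, adjusted p = 0.054). For mrpl12, whose human protein also binds the mitochondrial RNA polymerase, they were 31.1, 34.3 and 30.8 CPM in FACS sorted and 51.1, 37.5 and 85.3 CPM in FACS total RNA (-0.84 ± 0.33, adjusted p = 0.0912). In mrpl23, the counterpart of a protein at the exit of the peptide tunnel, the value was -0.73 ± 0.30 (adjusted p = 0.106). The sorted libraries lay close together in all 4 genes and the FACS total RNA libraries lay far apart in the last 3, with sample 3 highest.

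In 14 of the 73 genes, and in 24.8% of all genes, every FACS sorted library was below every FACS total RNA library. Without FACS total RNA 3 the median of the 73 genes was -0.14, and 22 of them had a positive log2 fold change. The 3 positive values with all libraries did not pass, and were those of mrpl47 (0.18 ± 0.39), mrps28 (0.16 ± 0.37) and mrps26 (0.13 ± 0.33). Endothelial markers summed to 5559 to 7650 CPM in FACS sorted and 129 to 185 CPM in FACS total RNA and 10 of 10 rose, while 5 of 5 muscle genes fell, to 265 to 348 CPM in FACS sorted against 1003 to 3262 CPM in FACS total RNA. Erythroid genes summed to 4337 to 21094 CPM in FACS sorted and 1650 to 4564 CPM in FACS total RNA, with 2 of 5 up, and 7 of 9 myeloid entries rose. All myeloid entries but lcp1, coro1a and lyz share the name mfap4, so the count rests on few names. Some mfap4 entries were low, down to 0.254 to 0.511 CPM in FACS sorted. The part of these other cells in the levels of the ribosomal protein genes was not tested. Of the companion genes, tfb2m, a mitochondrial transcription factor, fell (-1.06 ± 0.31), and of 90 nuclear respiratory chain genes tested 2 rose and 1 fell. Negative values were held by 75 of the 90 (median -0.20) and by 63 of 77 cytosolic ribosomal protein genes (median -0.11).

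Angiotag IP against Angiotag input addresses the endothelial translatome of the Angiotag line. The 73 genes leaned upward, with 65 positive log2 fold changes and a median of 0.28 against -0.03 over all genes tested. Of these, 4 rose past the threshold: mrpl53, mrps26, mrpl52 and mrpl32. Over all genes tested 12.1% rose and 11.9% fell, so 4 of 73, or 5.48%, is below the background share. At an unadjusted p under 0.05, a looser limit than that of these shares, there were 15 genes, all higher, a count without a computed background.

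The large-subunit gene mrpl53 (ENSDARG00000008920), particular to mitochondria, had 65.7, 34.6 and 61.4 CPM in Angiotag IP and 25.0, 32.0 and 26.4 CPM in Angiotag input (0.94 ± 0.25, adjusted p = 0.0274). Its neighbour in that class, mrpl52, had 95.3, 45.4 and 75.5 CPM in the IP and 37.0, 43.5 and 33.1 CPM in the input (0.91 ± 0.27, adjusted p = 0.0375). In both genes IP 2 stood only just above the highest input library. The small-subunit gene mrps26 (ENSDARG00000039719), which also has no bacterial counterpart, had 106, 62.6 and 86.0 CPM in the IP and 44.1, 49.2 and 40.2 CPM in the input (0.92 ± 0.22, adjusted p = 0.0175). For mrpl32, the counterpart of bacterial L32 and in yeast and mouse a protein that a protease of the inner membrane matures, they were 151, 85.3 and 126 CPM in the IP and 60.2, 82.0 and 70.5 CPM in the input (0.75 ± 0.24, adjusted p = 0.048). The call of mrpl32 ended when the sample number was added as a block, at an adjusted p of 0.0567, and the other 3 held.

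None of the 4 calls held whichever library was left out. The count was 28 without Angiotag IP 2, where 15.7% of all genes rose, and the median was then 0.44. Without Angiotag IP 1 it was 4, of which 1 was lower, where 16.8% of all genes rose and 18.6% fell, and the median was 0.14, with 54 positive values. The count was 1 without Angiotag input 2, where 6.61% of all genes rose. It was 0 without Angiotag IP 3, Angiotag input 1 or Angiotag input 3, where 6.74%, 6.17% and 5.62% of all genes rose, in that order. The count was 10 in DESeq2, where 15.3% of all genes rose, and 0 with all 18 libraries in 1 fit, where 7.57% rose. Under upper-quartile scaling the median of all genes was -0.24 and that of the 73 genes 0.08, with 48 of the 73 above 0. Among genes that did not pass, mrps25 (0.63 ± 0.20, adjusted p = 0.0528) and mrps14 (0.75 ± 0.25, adjusted p = 0.0566) also had every IP library above every input library. In all, 9 genes lay wholly above the input, as did 19.3% of all genes, and 2 wholly below, as did 24% of all genes. Those below were mrpl43, particular to mitochondria, at -0.52 ± 0.23 (adjusted p = 0.133), and mrps2, at -0.27 ± 0.15 (adjusted p = 0.229).

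In the same comparison, the mitochondrially encoded genes, whose messages are not on cytosolic ribosomes, all fell, 12 of 12 with a median of -3.85. The endothelial markers rose in 10 of 10 cases, to 2852 to 4893 CPM in Angiotag IP against 147 to 158 CPM in Angiotag input, and 5 of 5 neural genes fell. Of 8 myeloid entries tested 5 rose, to 345 to 860 CPM in Angiotag IP against 18.4 to 46.3 CPM in Angiotag input. Of 5 erythroid genes 2 rose, of 5 muscle genes 1 rose and 3 fell, and 3 of 4 yolk genes and 2 of 5 epidermal genes fell. The part of these other cells was not tested. Of the assembly factors, rbfa (1.22 ± 0.23), trub2 (0.86 ± 0.24), mterf4 (0.85 ± 0.22) and ybey (0.54 ± 0.17) rose, whereas eral1 (-1.69 ± 0.40) and fastkd2 (-0.83 ± 0.19) fell. Levels of eral1 were low, at 0.574, 1.86 and 1.48 CPM in Angiotag IP and 4.58, 3.84 and 4.38 CPM in Angiotag input. The leucyl-tRNA synthetase gene lars2 had 0.344, 0.387 and 0.329 CPM in Angiotag IP and 2.25, 1.81 and 1.92 CPM in Angiotag input (-2.50 ± 0.41, adjusted p = 0.00316), and ears2 (0.81 ± 0.26) and gatc (0.60 ± 0.17) rose. The rescue factor gene mtrfr rose (0.78 ± 0.21), and polrmt (-1.36 ± 0.28) and top1mt (-0.83 ± 0.26) fell. Of 92 nuclear respiratory chain genes 6 rose and 3 fell, and of 77 cytosolic ribosomal protein genes 1 rose and 1 fell. These lists leaned upward too, with positive values for 72 of the 92 (median 0.28) and 55 of the 77 (median 0.15).

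**Figure D4:**
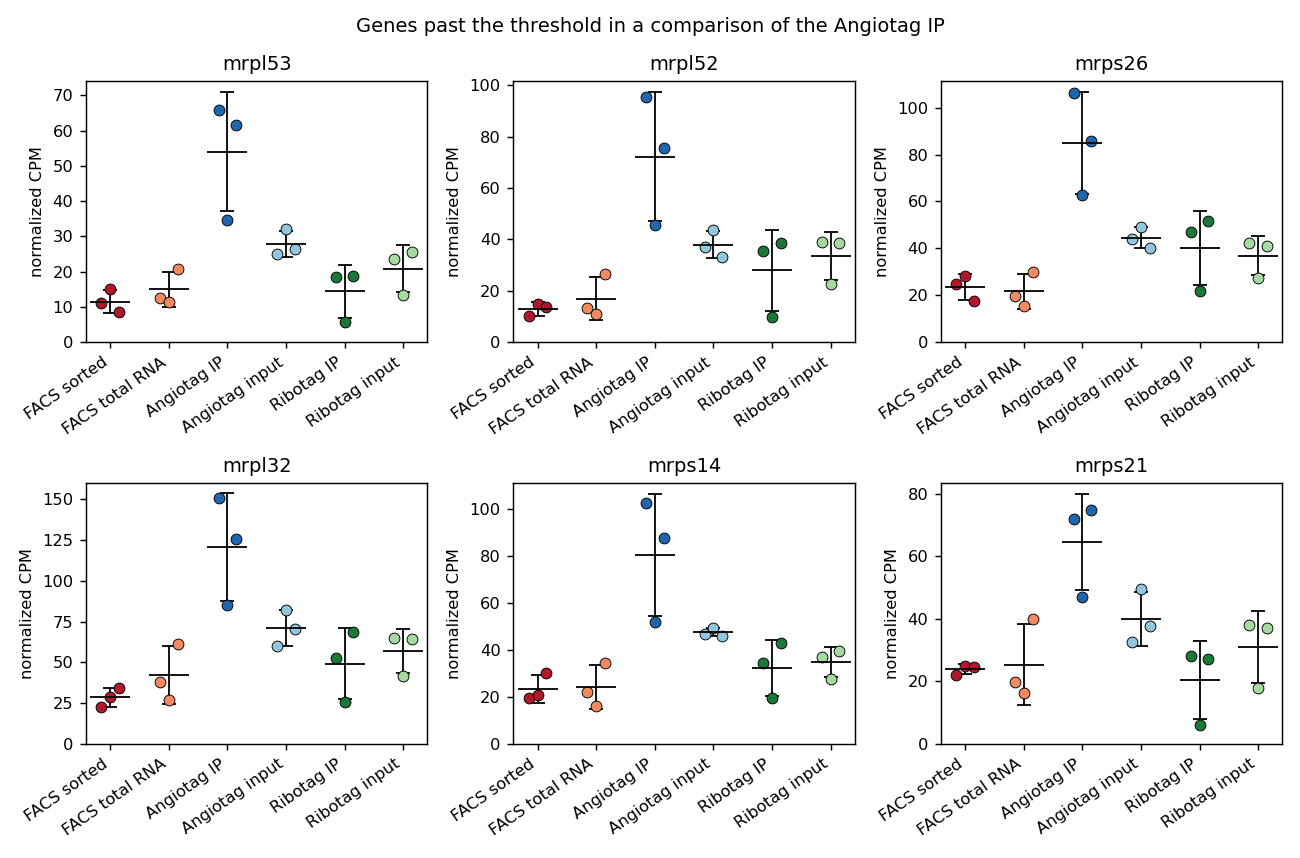
Levels in normalized CPM of the 6 genes that passed the threshold in a comparison of the Angiotag IP, in each of the 6 groups; points are libraries, lines are means of 3 and bars are SDs. In all 6 panels the Angiotag IP has the highest mean, its sample 2 is the lowest of its 3 points, and both FACS groups average below Angiotag input. The 6 genes were chosen for being called higher in the Angiotag IP, so its high mean is no further result.

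Ribotag IP against Ribotag input asks the same of the whole embryo. No gene passed the threshold in edgeR, where 0.7% of all genes tested rose and 0.496% fell. In DESeq2 1 passed, where 5.07% of all genes rose and 3.62% fell. In edgeR 4 had an unadjusted p under 0.05, all higher, a count without a computed background. The median of the 73 genes was 0.20 against -0.05 over all genes tested, with 51 positive values. The smallest p was that of mrpl39, a large-subunit gene particular to mitochondria, with 105, 68.7 and 133 CPM in Ribotag IP and 57.5, 48.9 and 53.6 CPM in Ribotag input (0.98 ± 0.26, adjusted p = 0.104). Its IP libraries were all above its input libraries. The log2 fold changes of mrpl37 (0.77 ± 0.27), mrps34 (0.71 ± 0.30) and mrps27 (0.43 ± 0.18) had adjusted p-values of 0.184, 0.246 and 0.251, and the 3 proteins have no bacterial counterpart.

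With the sample number as a block, 3 genes rose, mrpl39 (adjusted p = 0.00963), mrps34 (0.0232) and mrpl37 (0.0245), and mrps21 fell (0.0451). Of all genes, 7.2% rose and 6.99% fell under the block, so the members' counts are below that share. Without Ribotag IP 2, in which all 73 genes were lowest, 4 genes passed, all higher, where 4.62% of all genes rose, and the median was 0.47. Without Ribotag IP 3 the median was -0.17 and 24 of the 73 values were positive, and it was 0.03 without Ribotag input 2 and 0.33 without Ribotag input 3. Of the mitochondrially encoded genes, 11 of 12 fell, with a median of -4.70, and 3 of 4 yolk genes fell, to 368 to 686 CPM in Ribotag IP against 1663 to 2216 CPM in Ribotag input. None of the nuclear companion lists had a call.

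Angiotag IP against Ribotag IP sets the endothelial beside the whole-embryo translatome. Here 4 genes passed, all higher, mrpl53, mrps21, mrps14 and mrpl32, where 9.86% of all genes tested rose and 8.76% fell. The median of the 73 was 0.20 against -0.01, with 51 positive values. At an unadjusted p under 0.05 there were 12, all higher, a count without a computed background. The values spread with an SD of 0.54 across the 73 genes, the widest of the 8 comparisons for them, against 1.33 over all genes tested.

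In mrpl53 the levels were 65.7, 34.6 and 61.4 CPM in Angiotag IP and 18.6, 5.78 and 18.8 CPM in Ribotag IP, and the log2 fold change of 1.87 ± 0.43 (adjusted p = 0.0123) passed whichever library was left out. For mrps21 (ENSDARG00000070985), the counterpart of bacterial S21, they were 71.9, 46.8 and 74.7 CPM in Angiotag IP and 28.0, 5.99 and 27.3 CPM in Ribotag IP (1.63 ± 0.48, adjusted p = 0.0344). For mrps14, the counterpart of S14, they were 102, 51.7 and 87.6 CPM in Angiotag IP and 34.6, 19.6 and 43.0 CPM in Ribotag IP (1.28 ± 0.36, adjusted p = 0.0291), and mrpl32 was 1.26 ± 0.38 higher (adjusted p = 0.0367). Sample 2 was the lowest of both groups in all 4 genes, which were named among those whose groups did not overlap. Over the 73 genes, 11 lay wholly above and 1 wholly below Ribotag IP, against 17.7% and 17.2% of all genes. The value furthest below 0 was that of mrpl39, at -0.75 ± 0.36 (adjusted p = 0.169).

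With the sample number as a block, 14 genes passed, all higher and with the 4 above among them, where 13.8% of all genes rose. The labels do not pair samples of different lines by number. This block rests on correlations of deviations in these same data (0.221, 0.26 and 0.193). The genes added by the block were the large-subunit genes mrpl52, mrpl14, mrpl41, mrpl33, mrpl57 and mrpl54 and the small-subunit genes mrps26, mrps18c, mrps33 and mrps25. Their adjusted p-values ran from 0.00229 for mrpl52 to 0.0475 for mrpl54. Without the block, the count was 2 without Angiotag IP 1, of which 1 was lower, where 9.8% of all genes rose and 7.68% fell. It was 2 without Ribotag IP 2 (9.82% of all genes rose) and 1 without Angiotag IP 3 (4.53%) or Ribotag IP 1 (5.39%). It was 5 without Angiotag IP 2 (6.59%), 6 without Ribotag IP 3 (9%) and 9 in DESeq2 (13.4%). The median of the 73 genes was -0.11, with 30 positive values, without Ribotag IP 2, and 0.62, with 63 positive values, without Ribotag IP 3. It was 0.08 without Angiotag IP 1 and 0.42 without Angiotag IP 2. Endothelial markers rose in 10 of 10 cases, to 2852 to 4893 CPM in Angiotag IP against 133 to 177 CPM in Ribotag IP. Of 8 myeloid entries tested 6 rose, to 345 to 860 CPM in Angiotag IP against 19.9 to 26.6 CPM in Ribotag IP. In muscle 1 of 5 genes rose and 3 fell, and in the neural list 4 of 5 fell. Of 4 yolk genes 2 rose, of 5 erythroid genes 1 rose, and of 5 epidermal genes 2 fell. The part of these other cells was not tested.

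Of the 15 translation factors, 2 rose, the rescue factor gene mtrfr (1.25 ± 0.34) and the elongation factor gene guf1 (1.02 ± 0.31). The gene guf1 also rose between the inputs of both lines. It averaged 31.9 CPM in Angiotag IP and 32.3 CPM in Angiotag input, and 15.3 CPM in Ribotag IP and 14.7 CPM in Ribotag input. In the same list 2 fell, lrpprc (-1.52 ± 0.29), whose product binds mitochondrial messages, and the elongation factor gene tufm (-0.94 ± 0.28). Of the 24 assembly factors 1 rose, the GTPase gene mtg1 (1.30 ± 0.36), and 3 fell, eral1 (-1.92 ± 0.61), noa1 (-1.18 ± 0.31) and fastkd2 (-0.98 ± 0.29). Levels of eral1 were low and spread, at 0.574, 1.86 and 1.48 CPM in Angiotag IP and 3.77, 8.56 and 2.24 CPM in Ribotag IP. The synthetase genes lars2 (-3.28 ± 0.61) and yars2 (-1.13 ± 0.34) fell, as did polrmt (-1.60 ± 0.37) and the topoisomerase gene top1mt (-1.26 ± 0.39). Of 91 nuclear respiratory chain genes tested 6 rose and 3 fell, and 3 of 12 mitochondrially encoded genes rose. Of the cytosolic ribosomal protein genes 8 of 77 passed, all higher. Positive values were held by 73 of the 77, with a median of 0.72, and by 71 of the 91 respiratory chain genes, with a median of 0.56.

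Angiotag input against Ribotag input compares the embryos of both lines before the pull-down. In edgeR none of the 73 genes passed, where 0.818% of all genes tested rose and 0.845% fell. In DESeq2 1 passed, where 4.05% of all genes rose and 4.68% fell. In edgeR 4 had an unadjusted p under 0.05, all higher, a count without a computed background. The median was 0.13 against 0.00 over all genes tested, and the values spread least here, with an SD of 0.17. Those of all genes tested also spread least in this comparison, with an SD of 0.64. The smallest p was that of mrps24, a counterpart of a bacterial small-subunit protein, with 66.8, 66.5 and 61.1 CPM in Angiotag input and 47.3, 37.7 and 52.9 CPM in Ribotag input (0.52 ± 0.15, adjusted p = 0.0964). For mrpl58, known in human cells as a hydrolase that frees stalled chains, they were 14.0, 12.8 and 11.1 CPM in Angiotag input and 10.04, 7.89 and 9.33 CPM in Ribotag input (0.50 ± 0.17, adjusted p = 0.132). The gene mrps14 came between mrps24 and mrpl58 in order of p (0.47 ± 0.16, adjusted p = 0.128). It was also called higher in Angiotag IP against Ribotag IP, and its Angiotag input libraries were all above its Ribotag input libraries. After these came mrpl34 (0.38 ± 0.17, adjusted p = 0.212). Of the 73 genes, 4 lay wholly above Ribotag input and 1 wholly below, against 11.8% and 13.8% of all genes. Without Ribotag input 2 the median was -0.04, with 32 positive values, and without Ribotag input 3 it was 0.25, with 66. The companion gene guf1, a translation factor, rose (1.16 ± 0.20). Positive values were held by 85 of 92 nuclear respiratory chain genes (median 0.29) and by 77 of 77 cytosolic ribosomal protein genes (median 0.42).

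The difference between both enrichments of the Angiotag line, IP over input minus sorted over total, was positive for all 73 genes, with a median of 0.76 against 0.05 over all genes tested. No gene passed in edgeR or in DESeq2, while 28 had an unadjusted p under 0.05, all higher, a count without a computed background. Of all genes tested 3% rose and 5.12% fell in this contrast in edgeR, and 4.58% rose and 10.7% fell in DESeq2. The smallest p-values were those of mrpl41 (1.18 ± 0.36, adjusted p = 0.0581), mrps25 (1.02 ± 0.31, adjusted p = 0.0597), mrpl40 (1.17 ± 0.38, adjusted p = 0.0692) and mrpl32 (1.32 ± 0.44, adjusted p = 0.077). For mrpl41 the levels were 52.1, 34.9 and 42.8 CPM in Angiotag IP and 30.0, 36.3 and 31.0 CPM in Angiotag input, and 7.26, 8.50 and 6.35 CPM in FACS sorted against 10.5, 10.6 and 16.7 CPM in FACS total RNA. All 3 sorted libraries were below FACS total RNA, and the IP overlapped its input. With median-of-ratios scaling the median of all genes was -0.11 and 71 of the 73 values were positive, with a median of 0.60. Without FACS total RNA 3 the median was 0.46, with 69 of the 73 values positive. Leaving out Angiotag IP 2 gave 6 calls, FACS total RNA 2 gave 7 and FACS sorted 2 gave 1, all higher. Of all genes, 1.94%, 2.99% and 3.57% rose in those fits, in that order. Leaving out any other library gave 0. Other nuclear gene lists leaned the same way. Values were positive for 80 of 92 respiratory chain genes, with a median of 0.54, and for 68 of 77 cytosolic ribosomal protein genes, with a median of 0.26. Of the mitochondrially encoded genes, 11 of 12 were lower, with a median of -3.80. Among companion genes mtrfr (1.97 ± 0.46) was higher, and lars2 (-2.45 ± 0.60), eral1 (-1.92 ± 0.54) and top1mt (-1.40 ± 0.39) were lower.

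The difference between the Angiotag and Ribotag enrichments showed no call in edgeR or DESeq2. In DESeq2 7.21% of all genes rose and 6.02% fell. In edgeR 1 gene had an unadjusted p under 0.05, a count without a computed background. The median of the 73 genes in edgeR was 0.07 against -0.07 over all genes tested, of which 4.46% rose and 3.53% fell. Under upper-quartile scaling the median of the 73 genes was -0.01. The widest values were those of mrpl53 (1.42 ± 0.55, adjusted p = 0.138) and mrpl39 (-0.79 ± 0.41, adjusted p = 0.27). Between them in order of p came mrpl2 (-0.54 ± 0.27, adjusted p = 0.256) and mrpl32 (0.90 ± 0.46, adjusted p = 0.262). With the sample number as a block, 4 genes passed, all higher: mrpl53 (adjusted p = 0.00773), mrps21 (0.0135), mrps18c (0.0301) and mrpl52 (0.0314). Of all genes, 7.85% rose under the block, a larger share than 4 of 73. Without Ribotag IP 2 the median was -0.21, with 18 positive values, and without Ribotag IP 3 it was 0.43, with 62 positive values. Among companion genes lars2 (-2.77 ± 0.56), polrmt (-1.36 ± 0.37) and lrpprc (-1.09 ± 0.27) passed, all lower, and of 92 nuclear respiratory chain genes 2 were higher and 4 lower.

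**Figure D5:**
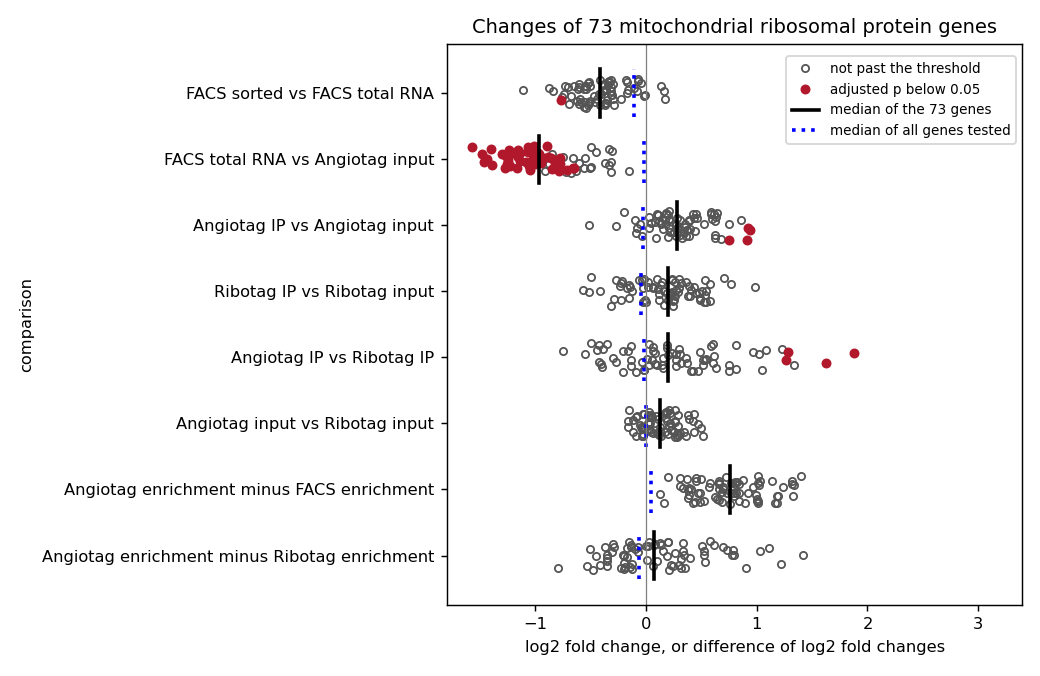
Log2 fold changes, or differences of log2 fold changes in the lowest 2 rows, of the 73 genes in each of the 8 comparisons; each point is a gene, red points passed the threshold, black bars are medians of the 73 and dotted blue bars are medians of all genes tested. The 73 genes lie furthest left, at a median of -0.97, in FACS total RNA against Angiotag input, where 51 points are red.

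Some members are known for more than their place in the ribosome. The large-subunit gene mrpl44, whose protein has the fold of a ribonuclease, averaged 25.2 ± 3.62 CPM in FACS sorted and 32.2 ± 13.0 CPM in FACS total RNA (SD, n = 3 each). It averaged 44.2 ± 10.02 CPM in Angiotag IP and 43.0 ± 3.08 CPM in Angiotag input, and 56.7 ± 12.9 CPM in Ribotag IP and 41.0 ± 5.62 CPM in Ribotag input. For mrpl45, which in human mitochondria tethers the ribosome at the inner membrane, the means were 19.5 ± 2.35 CPM in FACS sorted, 27.3 ± 8.70 CPM in FACS total RNA, 42.8 ± 8.53 CPM in Angiotag IP, 35.1 ± 3.10 CPM in Angiotag input, 46.0 ± 19.3 CPM in Ribotag IP and 36.5 ± 6.89 CPM in Ribotag input. Neither gene passed in any of the 8 comparisons. The 3 genes that share the base name mrps18 encode relatives of bacterial S18. Of these, mrps18a fell in FACS total RNA against Angiotag input (-1.23 ± 0.24, adjusted p = 0.00452), as did mrps18b (-0.80 ± 0.28, adjusted p = 0.046), and mrps18c did not pass there (-0.88 ± 0.33, adjusted p = 0.0562). The hydrolase gene mrpl58 fell there too, with 6.74, 6.34 and 6.40 CPM in FACS total RNA and 14.0, 12.8 and 11.1 CPM in Angiotag input (-1.07 ± 0.19, adjusted p = 0.00297).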

How the data were processed

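The table holds counts per Ensembl gene, which the authors deposited unnormalized and which were whole numbers as deposited. The submitters' processing notes name STAR 2.4.2a, RSEM 1.2.22, DESeq2 and the GRCz10 build without their roles. The annotation release and the strand setting are not given in the sources used here. Per the labels' protocols, RNA was selected for poly(A) or depleted of ribosomal RNA before stranded library construction, without saying which library had which. Columns were matched to sample titles by line name and number: those with the line name alone were taken as IP or sorted samples and those marked total as input or total RNA. No column stayed without a sample. Gene names came from an Ensembl table that named 22548 of the 25193 IDs. Gene positions, lengths and sequences were not used here, so steps planned on motifs and on levels per length were not run.

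Each comparison was fitted on its own groups with edgeR 4.0.16 in R 4.3.3: TMM scaling, filterByExpr (minimum count 10, minimum total 15), the quasi-likelihood F test, and Benjamini-Hochberg adjustment over all genes tested with a threshold of 0.05. Differences of enrichments were interaction contrasts over the 4 groups involved. The SE was taken as the size of the log2 change over the root of its F value. Percentages of genes lying wholly above or below are over the 20517 genes kept across the 18 libraries. Fits were tested on simulated data first. Alternatives were DESeq2 1.42.0, other scalings and filters, a joint fit, a replicate block and leaving out each library. No replicate pair agreed within sampling noise.

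Same-numbered samples deviated together (every correlation of deviations over 0.1) for Angiotag IP with Angiotag input (0.449, 0.226 and 0.25), Ribotag IP with Ribotag input (0.311, 0.718 and 0.515) and Angiotag IP with Ribotag IP (0.221, 0.26 and 0.193). The pairing therefore comes from the data and not from the labels.

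The members and the gene lists were chosen with earlier results of these data known. Genes named per comparison are up to 10 called in each direction by size of change with groups apart, or the 4 of smallest p where fewer than 4 passed, plus members with a special documented role. Other lists are named by up to 3 calls in each direction. Further genes named, such as mrpl43, mrps25, mrpl47 and mrps28, were chosen after their values were seen.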

Additional observations from a re-analysis of the deposited data

How the results depend on the processing

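The counts of called genes depended on the processing in most comparisons. For Angiotag IP against Angiotag input, 4 as reported, upper-quartile scaling gave 1, DESeq2 10, no filter on low counts 7 and a fit of all 18 libraries 0. Of all genes, 8.16%, 15.3%, 9.34% and 7.57% rose in those settings, in that order. Leaving out 1 library gave 0 to 28. For Ribotag IP against Ribotag input, 0 as reported, DESeq2 gave 1 and the replicate block 4, and leaving out 1 library gave 0 to 4. In DESeq2 5.07% of all genes rose and 3.62% fell. For FACS sorted against FACS total RNA, 1 as reported, median-of-ratios scaling, no filter and the replicate block each gave 0. Upper-quartile scaling gave 6, a minimum of 1 CPM in 3 libraries 2 and all libraries in 1 fit 5, all lower. Of all genes, 18.9%, 16.3% and 17.2% fell in those settings, in that order. Leaving out 1 library gave 0 to 1. For Angiotag IP against Ribotag IP, 4 as reported, DESeq2 gave 9, no filter 8, all libraries in 1 fit 11 and the replicate block 14. Of all genes, 13.4%, 8.94%, 14.9% and 13.8% rose in those settings, in that order. Leaving out 1 library gave 1 to 6. For Angiotag input against Ribotag input, 0 as reported, DESeq2 gave 1, where 4.05% of all genes rose and 4.68% fell. For FACS total RNA against Angiotag input, 51 as reported, planned settings other than leaving out a library gave 39 to 54, where 12.1% to 23% of all genes fell. Ribotag input in place of Angiotag input, added after seeing the data, gave 30. Leaving out 1 library gave 30 to 73, where 11.9% to 30.3% of all genes fell. For the Angiotag minus the Ribotag enrichment, 0 as reported, the replicate block gave 4. For the Angiotag minus the FACS enrichment, 0 as reported, leaving out 1 library gave 0 to 7. The causes were not tested. Where same-numbered samples did not deviate together, the block gave 52 calls in place of 51 for FACS total RNA against Angiotag input, with 49 shared, and 0 for both inputs and for the Angiotag minus the FACS enrichment. There, samples correlated best with their own number in 2 of 3 cases for FACS sorted with FACS total RNA, in 1 of 3 for the inputs and in 0 of 3 for FACS total RNA with Angiotag input. The block changed no other call than those given. Upper-quartile scaling moved all genes as well, to a median of -0.31 for FACS sorted (0 of the 73 genes positive), -0.16 for Angiotag IP against Ribotag IP (42 positive) and -0.14 for the Ribotag IP (46 positive). For the 38 results of single mitochondrial ribosomal protein genes named by size of change or smallest p, 590 values were recomputed. Of these, 516 stayed on the same side of the threshold, 51 lost a call and 23 gained one, and none changed sign while called. The companion and marker genes are not among them, and their calls under these alternatives were not examined. With 3 samples a group, changes of small size may be missed.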
